A study of Mus musculus with 8 samples.

Results

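The B7 family ligands are surface proteins that tune T-cell responses, and 8 of the 54532 genes in the count table were taken as members by their symbols: Cd276, Cd274, Pdcd1lg2, Cd80, Cd86, Icosl, Vtcn1 and Vsir. Cd276 encodes the target of the antibody tested. Tumors grown from 4T1-FLuc, a mouse triple-negative breast cancer (TNBC) line carrying firefly luciferase (given as 4T1 in the labels), were sequenced in bulk from 4 saline mice and 4 mAb-DXd/IMQ mice. The hosts were immunocompetent female BALB/cJ mice, 6 weeks old at subcutaneous injection. mAb-DXd/IMQ, labelled HumCD276-Dxd/IMQ, is a humanized CD276 antibody carrying DXd, a topoisomerase I inhibitor, and IMQ, an imidazoquinoline agonist of TLR7 and TLR8. Each of 5 courses was a tail vein dose of 16 mg/kg, spaced 4 days apart. Control mice are called saline in the sample titles and PBS control in the treatment label. Tumors were taken at a common endpoint and were not matched for size at collection, so treatment and tumor size cannot be told apart. No group given the antibody alone or a single-payload conjugate is among the sequenced samples, so effects of the antibody, DXd and IMQ cannot be told apart.

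CD80 and CD86 on antigen-presenting cells engage the activating receptor CD28 and the inhibitory receptor CTLA4 on T cells, and ICOSL engages ICOS. PD-L1, encoded by Cd274, and PD-L2, encoded by Pdcd1lg2, both bind the inhibitory receptor PD-1, encoded by Pdcd1. PD-L1 is made by tumor cells and many immune cells, whereas PD-L2 is made mainly by macrophages and dendritic cells. CD276 (B7-H3), VTCN1 (B7-H4) and VISTA, encoded by Vsir, are further family members with mostly inhibitory roles, and CD276 is abundant on many carcinomas.

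Total counts were 49398150, 45019927, 56388627 and 69582375 in saline tumors 1 to 4, and 51625237, 46196237, 42965317 and 34591912 in mAb-DXd/IMQ tumors 1 to 4. Levels are in CPM, the counts of a gene relative to the normalized total of its tumor. At these depths, before normalization factors, 3 counts equal 0.0431 to 0.0867 CPM, a floor that covers counting error only. Each of the 8 ligands was counted in all 8 tumors and entered the test. The lowest single count was 15, for Vtcn1.

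The tumor label was checked against marker genes. Epcam averaged 374 ± 121 CPM (SD, n = 4) in saline tumors, and the epithelial keratin Krt18 averaged 637 ± 37.1 CPM (SD, n = 4). Of the receptors that define the triple-negative class, Pgr averaged 0.367 ± 0.281 CPM (SD, n = 4), Esr1 19.1 ± 1.14 CPM (SD, n = 4) and Erbb2 102 ± 19.7 CPM (SD, n = 4) in saline tumors. Means in mAb-DXd/IMQ tumors were 0.577 CPM for Pgr, 15.7 CPM for Esr1 and 101 CPM for Erbb2. Esr1 was lower in all 4 treated tumors than in any saline tumor, and none of these receptors was called by edgeR. Pgr was therefore near 0, while Esr1 and Erbb2 RNA was present, and RNA levels in bulk tissue do not give receptor protein on tumor cells.

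Among the 8 ligands, 1 fell and 0 rose, with thresholds of 0.05 for the false discovery rate (FDR) and 0.58 for the size of the log2 fold change. Over all 18511 genes tested, 1.06% passed in either direction, 0.519% as lower and 0.546% as higher, and 18.9% had an unadjusted p under 0.05, against 3 of the 8 ligands, Pdcd1lg2, Cd80 and Cd276. The same thresholds passed 787 of the 18511 genes with DESeq2 and 174 with limma-voom. The ligand that fell was Pdcd1lg2. The median log2 fold change was -0.23 over the 8 ligands, 6 of which had negative values (4 without saline tumor 2), and 0.02 over all tested genes, 47.4% of which were negative. Without saline tumor 2 the ligand median lay nearer to that of all genes, between the middle values of -0.16 (Cd86) and 0.02 (Vsir). The median over all genes of that fit was 0.03. For 1 of the 8 ligands the CPM ranges of saline and treated tumors were separate, against 13.1% of all tested genes.

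**Figure D1:**
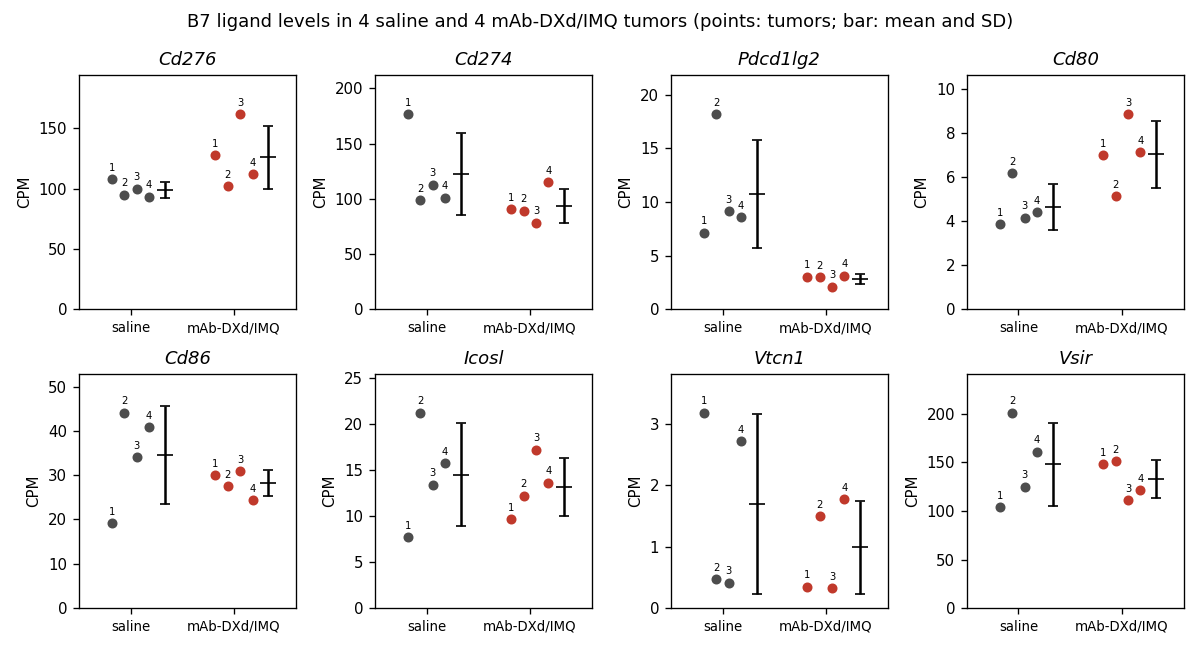
Levels of the 8 B7 ligands in CPM (vertical axes, each starting at 0) in each saline (grey) and mAb-DXd/IMQ (red) tumor, numbered by replicate, with the mean and SD of each group (n = 4). Pdcd1lg2 lay between 2.12 and 3.12 CPM with treatment and at 7.15 CPM or more with saline, and the groups overlapped for the other 7 ligands.

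The PD-1 ligands Cd274 and Pdcd1lg2 are neighbours on chromosome 19, 22.8 kb apart. Cd274 lies at chr19:29367455-29388095 and Pdcd1lg2 at chr19:29410919-29471157, both on the plus strand in GRCm38. The 250 bases before each RefSeq start are shown because these neighbours bind the same receptor and Pdcd1lg2 is the ligand that fell; whether their fold changes differ was not tested (RefSeq, GRCm38.p6, plus strand, chr19:29367188-29367437 for Cd274 and chr19:29410669-29410918 for Pdcd1lg2). Capitals mark a match to any of 3 motifs searched on both strands, namely the STAT palindrome of TTC and GAA with a spacer of 3 bases, the same with a spacer of 4, and the interferon-response core of GAAA and GAAA with a spacer of 2; none of these patterns contains another.
Cd274: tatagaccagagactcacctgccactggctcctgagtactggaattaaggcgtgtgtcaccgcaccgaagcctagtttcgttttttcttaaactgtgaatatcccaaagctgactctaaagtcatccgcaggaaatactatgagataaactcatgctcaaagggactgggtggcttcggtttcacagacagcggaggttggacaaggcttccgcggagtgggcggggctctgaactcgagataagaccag
Pdcd1lg2: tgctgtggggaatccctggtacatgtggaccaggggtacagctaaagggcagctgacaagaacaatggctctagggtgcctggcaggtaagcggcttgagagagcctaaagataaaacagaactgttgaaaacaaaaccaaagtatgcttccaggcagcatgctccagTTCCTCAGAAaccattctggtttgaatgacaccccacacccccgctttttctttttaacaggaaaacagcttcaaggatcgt
The motifs were chosen with the fold changes known. Promoter sequences were matched for 7 of the 8 ligands, all but Cd86, and across the 3 motifs only Pdcd1lg2 held a match, the palindrome with a spacer of 4 bases. Of 32851 mouse promoters, 5.85% hold this palindrome in the same window, 7.02% hold the palindrome with a spacer of 3 and 2.98% hold the interferon-response core. The share of promoters holding any of the 3 is not given here, and no excess of matches among the ligands is claimed. A match describes letters in the window and does not show a bound site.

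Pdcd1lg2, encoding PD-L2, was at 7.15, 18.2, 9.13 and 8.61 CPM in saline tumors 1 to 4 and at 3.03, 3.02, 2.12 and 3.12 CPM in mAb-DXd/IMQ tumors 1 to 4. All 4 treated tumors were below all 4 saline tumors, saline tumor 2 was far above the other saline tumors, and treated tumor 3 was below the other treated tumors. The mean was 10.8 ± 5.0 CPM (SD, n = 4) with saline and 2.82 ± 0.471 CPM (SD, n = 4) with treatment, 26.2% of the saline level. The log2 fold change was -1.93 (SE 0.302; edgeR quasi-likelihood test, adjusted p = 0.0201), the 9th largest fall among the 96 genes that fell. Without saline tumor 2, the log2 fold change was -1.56 (edgeR, adjusted p = 0.0290). The call was lost without any 1 of 5 tumors, although the log2 fold change stayed between -2.02 and -1.82 in those 5 fits. The edgeR adjusted p was 0.0665 without saline tumor 3, 0.0846 without saline tumor 4, and 0.0518, 0.0514 and 0.0702 without mAb-DXd/IMQ tumors 2, 3 and 4. Over all 19 alternatives the log2 fold change ran from -2.08 to -1.56 and the adjusted p from 7.9e-08 to 0.0846.

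In bulk samples, fewer cells of a type and less RNA per cell cannot be told apart, which applies to Pdcd1lg2 and to every immune gene below. Macrophages are a known source of PD-L2. Their 9 marker genes summed to 927, 2981, 1667 and 1931 CPM in saline tumors 1 to 4 and to 1731, 1414, 1495 and 1148 CPM in mAb-DXd/IMQ tumors 1 to 4. The sums overlapped, with saline tumor 2 highest and saline tumor 1 lowest. All 9 gave negative log2 fold changes (8 with upper-quartile factors or limma-voom) with a median of -0.36 (-0.19 with limma-voom), C1qa was the most abundant per length and none was at 0 in any tumor. None was called by edgeR or limma-voom, DESeq2 called 1, Mrc1, and the same gene alone had an unadjusted p under 0.05 in edgeR and was called there with no filter on low counts (adjusted p = 0.0153). Mrc1, a mannose receptor chosen for mention after its values were seen, was at 104, 360.2, 135 and 189 CPM in saline tumors and at 75.7, 82.7, 71.9 and 75.6 CPM in the treated ones. Its groups did not overlap and saline tumor 2 was far above the rest, with a log2 fold change of -1.36 (edgeR, adjusted p = 0.0574, from 0.000507 to 0.155 over the alternatives). It was called without saline tumor 1 (-1.58; edgeR, adjusted p = 0.0294), and without saline tumor 2 the log2 fold change was -0.90. The 10 dendritic cell markers summed to 369, 425, 430.2 and 398 CPM in saline tumors and to 411, 375, 521 and 331 CPM in mAb-DXd/IMQ tumors, with Fscn1 the most abundant per length and none at 0 in any tumor. Their median log2 fold change was -0.73, with 8 of 10 negative, 0 called by edgeR, DESeq2 or limma-voom, and 4 with an unadjusted p under 0.05. Most of the sum came from the 2 that were not negative, Fscn1 (238 to 365 CPM over the 8 tumors) and Itgax (64.1 to 128 CPM, named after its values were seen), so it hardly shows the other 8. The part of these cells in the Pdcd1lg2 result was not tested.

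Cd274, encoding PD-L1, was at 177, 98.7, 113 and 101 CPM in saline tumors 1 to 4 and at 90.8, 89.5, 78.4 and 115 CPM in mAb-DXd/IMQ tumors 1 to 4. Saline tumor 1 was far above the other 7 tumors, and treated tumor 4 lay within the saline range, so the groups overlapped. The log2 fold change was -0.39 (SE 0.193; edgeR, adjusted p = 0.304), which did not pass, and it was -0.16 without saline tumor 1. On a scale per length (RPKM, the CPM per kilobase of gene), the level ratio of Cd274 to Pdcd1lg2 was 11.2, 2.47, 5.6 and 5.32 in saline tumors 1 to 4 and 13.6, 13.5, 16.8 and 16.7 in mAb-DXd/IMQ tumors 1 to 4. PD-L1 RNA was more abundant than PD-L2 RNA in every tumor on this scale, and the ratio was higher in all 4 treated tumors than in any saline tumor. No test was made of this ratio.

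Cd276, the antibody target (chr9:58524298-58555437, GRCm38, minus strand), was at 108, 95.1, 100.1 and 93.3 CPM in saline tumors 1 to 4 and at 128, 102, 162 and 112 CPM in mAb-DXd/IMQ tumors 1 to 4. The saline tumors were close together and 3 of 4 treated tumors lay above all of them, with treated tumor 2 inside the saline range. The coefficient of variation of Cd276 CPM was 6.55% with saline and 20.6% with treatment. The log2 fold change was 0.35 (SE 0.141; edgeR, adjusted p = 0.214), which did not pass, and it stayed between 0.21 (without treated tumor 3) and 0.44 over the 19 alternatives. Target RNA was thus present in each of the 4 treated tumors at the endpoint. Epithelial markers, 7 genes with Krt18 the most abundant per length, summed to 2861, 2102, 2900.3 and 2633 CPM in saline tumors and to 4141, 3189, 2394 and 2439 CPM in mAb-DXd/IMQ tumors, with overlapping groups, none at 0 in any tumor. All 7 had positive log2 fold changes (6 with limma-voom) with a median of 0.29, and 0 were called by edgeR, DESeq2 or limma-voom (0 with an unadjusted p under 0.05). The part of tumor cell content in the Cd276 values was not tested.

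Of the CD28 and CTLA4 ligands, Cd80 was at 3.85, 6.18, 4.15 and 4.40 CPM in saline tumors 1 to 4 and at 6.99, 5.13, 8.86 and 7.13 CPM in mAb-DXd/IMQ tumors 1 to 4. Treated tumors 1, 3 and 4 were above all saline tumors and treated tumor 2 was not. The log2 fold change was 0.60 (SE 0.230; edgeR, adjusted p = 0.195), so the size limit was only just reached and the FDR limit was not. It ran from 0.47 (without treated tumor 3) to 0.76 (without saline tumor 2) over the 19 alternatives, so some fits fell short of the size limit. Cd86 was at 19.1, 44.1, 34.1 and 40.8 CPM in saline tumors 1 to 4 and between 24.3 and 30.9 CPM in mAb-DXd/IMQ tumors, with a log2 fold change of -0.29 (SE 0.219; edgeR, adjusted p = 0.504). The treated range of Cd86 lay inside the saline range, which was set by the lowest value in saline tumor 1 and the highest in saline tumor 2, and the log2 fold change was -0.50 without the first of these and -0.16 without the second. The RPKM ratio of Cd86 to Cd80 was 5.01, 7.22, 8.31 and 9.38 in saline tumors 1 to 4 and 4.34, 5.42, 3.53 and 3.44 in mAb-DXd/IMQ tumors 1 to 4. Treated tumor 2 was above saline tumor 1 in this ratio, so the groups overlapped, and no test was made.

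Icosl, the ICOS ligand, ranged from 7.68 to 21.2 CPM with saline and from 9.65 to 17.2 CPM with treatment, with a log2 fold change of -0.14 (SE 0.281; edgeR, adjusted p = 0.840). Vsir, encoding VISTA, ranged from 104 to 201 CPM with saline and from 111 to 151 CPM with treatment, with a log2 fold change of -0.16 (SE 0.194; edgeR, adjusted p = 0.707). Saline tumor 2 was the highest tumor for both genes, and without it their log2 fold changes were 0.10 and 0.02, so no direction is given for either. Vtcn1 was the least abundant ligand per length and the most variable, at 3.18, 0.474, 0.412 and 2.72 CPM in saline tumors 1 to 4 and 0.351, 1.5, 0.327 and 1.77 CPM in mAb-DXd/IMQ tumors 1 to 4. Each group held a pair of higher and a pair of lower tumors, and the log2 fold change of -0.79 (SE 0.755; edgeR, adjusted p = 0.612) was close to its own standard error and ran from -1.22 to -0.31 in the fits without 1 tumor. A gene on the opposite strand, Cdh23, overlaps Vsir, and its counts equal 2.16% of those of Vsir, and the strand used in counting is not given in the sources used here.

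Levels of the ligands were compared per length, in RPKM. Mean RPKM in saline tumors ran in the order Cd274 33.8 ± 10.2, Vsir 29.5 ± 8.53, Cd276 27.1 ± 1.78, Cd86 9.43 ± 3.03, Pdcd1lg2 6.54 ± 3.04, Icosl 3.14 ± 1.21, Cd80 1.25 ± 0.283 and Vtcn1 0.647 ± 0.557 (SD, n = 4 each). The first 3 overlapped one another and were all above Cd86, and each later neighbour overlapped the next. In mAb-DXd/IMQ tumors the order was Cd276 34.5 ± 7.11, Vsir 26.4 ± 3.94, Cd274 25.8 ± 4.25, Cd86 7.70 ± 0.809, Icosl 2.85 ± 0.685, Cd80 1.90 ± 0.411, Pdcd1lg2 1.71 ± 0.286 and Vtcn1 0.376 ± 0.288 (SD, n = 4 each). Cd276, Vsir and Cd274 again overlapped, and so did Icosl with Cd80 and Cd80 with Pdcd1lg2. Pdcd1lg2 held rank 5 in saline tumors and rank 7 in mAb-DXd/IMQ tumors.

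As a share of the summed RPKM of the 8 ligands, Cd276 held 26.2, 21.1, 26.7 and 23.7% in saline tumors 1 to 4 and 33.8, 28.9, 42.5 and 30.5% in mAb-DXd/IMQ tumors 1 to 4. The Cd276 share was higher in every treated tumor than in any saline tumor. Pdcd1lg2 held 3.87, 8.98, 5.41 and 4.87% in saline tumors and 1.77, 1.90, 1.24 and 1.88% in mAb-DXd/IMQ tumors. Its share was lower in every treated tumor than in any saline tumor, and the share of Cd80, between 0.924 and 1.36% with saline and between 1.43 and 2.30% with treatment, was higher in every treated tumor. Shares of the other 5 ligands overlapped. Shares sum to a fixed total, so a lower share of other ligands raises the rest, and no test was made of them. The summed RPKM itself was 111 ± 8.71 (SD, n = 4) with saline and 101 ± 3.43 (SD, n = 4) with treatment.

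**Figure D2:**
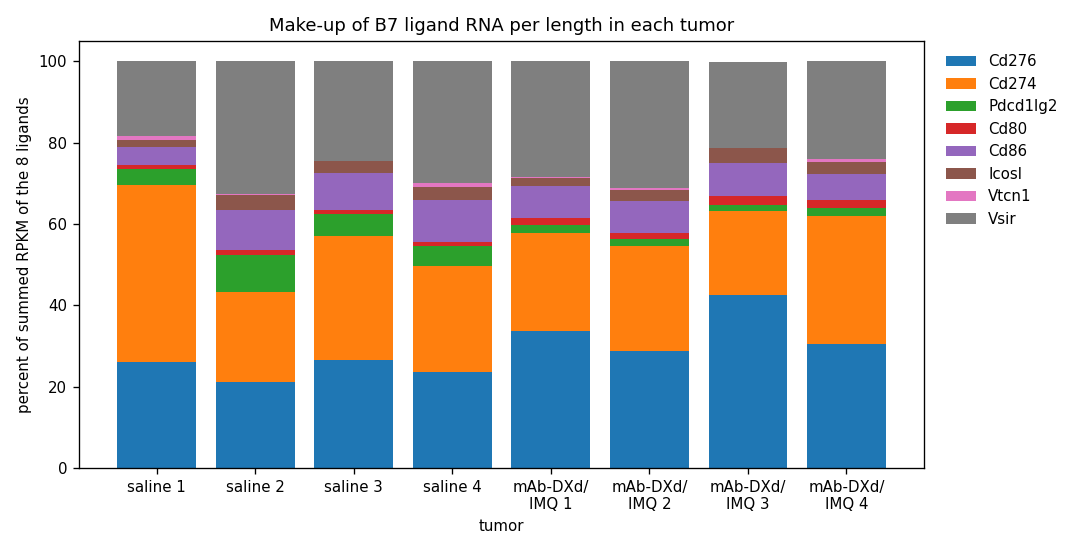
Make-up of B7 ligand RNA in each tumor, as the percent of the summed RPKM of the 8 ligands (vertical axis) held by each ligand (colors) in each saline and mAb-DXd/IMQ tumor (horizontal axis). Cd276 held 21.1 to 26.7% with saline and 28.9 to 42.5% with treatment.

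The ligands did not vary together as a single group. For deviations of log2 CPM from the group means over 8 tumors, 12 of the 28 pairs of ligands had a positive Pearson r and 16 a negative r. The lowest was Cd274 with Cd86 (r = -0.957, Spearman rho = -0.905), and r was -0.834 without the 2 tumors farthest from the Cd274 median. The highest was Pdcd1lg2 with Vsir (r = 0.831, rho = 0.786), which was 0.469 without the 2 tumors farthest from the Pdcd1lg2 median. Both are descriptions of 8 tumors that share their normalization, chosen as the extremes of the 28.

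By the same measure, the genes most like Cd276 were Prkag2, Srf and Casp8ap2 (r = 0.983, 0.977 and 0.977 over 8 tumors), and 48 of 10757 genes compared reached 0.9. Those most like Pdcd1lg2 were Smg6, Atxn3 and Naglu (r = 0.984, 0.977 and 0.977), and those most like Cd274 were Zfp143, Jade1 and Stx3 (r = 0.988, 0.970 and 0.969). For Cd86 they were Gpr65, Lilra5 and the macrophage marker Adgre1 (r = 0.997, 0.990 and 0.989), with 235 genes at 0.9 or more, the most of any ligand. For Icosl they were Adap2, Atp6v0a1 and Mknk1 (r = 0.997, 0.990 and 0.989), and for Vsir they were Ttc9, Tex261 and Alox5ap (r = 0.985, 0.980 and 0.968). For Cd80 they were Impdh1, Rbpms and Wdr4 (r = 0.955, 0.955 and 0.951), and for Vtcn1 they were Dzip1, Preb and Tspan17 (r = 0.961, 0.950 and 0.941). Such lists are unsteady with this many genes and 8 tumors: with Spearman in place of Pearson, ties included, 1 of the 3 genes stayed among the best for Cd276, Cd80, Cd86 and Icosl, and 0 for the other ligands.

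Of the 8 receptors and partners of the ligands, 7 were tested and all 7 had negative log2 fold changes (Ctla4 was at 0.03 without saline tumor 4, and Treml2 at -0.01 without saline tumor 2), with a median of -0.51 against 0.02 over all tested genes. None was called by edgeR or limma-voom, 2 had an unadjusted p under 0.05 and DESeq2 called 1, Icos. Cd28, the receptor for CD80 and CD86, was at 2.61, 3.72, 2.15 and 2.32 CPM in saline tumors 1 to 4 and at 1.40, 1.28, 0.393 and 2.11 CPM in mAb-DXd/IMQ tumors 1 to 4, only just without overlap (log2 fold change -1.06, SE 0.428; edgeR, adjusted p = 0.214). Icos was at 3.61, 5.32, 3.99 and 5.94 CPM in saline tumors and at 1.96, 2.82, 2.18 and 3.48 CPM in mAb-DXd/IMQ tumors, also without overlap (-0.85, SE 0.264; edgeR, adjusted p = 0.119; DESeq2, adjusted p = 0.0252; up to 0.316 over the alternatives). Pdcd1, encoding PD-1, was at 12.5, 13.6, 12.9 and 11.3 CPM in saline tumors and at 12.0, 7.64, 2.40 and 8.17 CPM in mAb-DXd/IMQ tumors, where treated tumor 1 lay within the saline range and treated tumor 3 was lowest (-0.73, SE 0.362; edgeR, adjusted p = 0.302; -0.44 without treated tumor 3). Ctla4 gave -0.51 (SE 0.528; edgeR, adjusted p = 0.650) and 0.03 without saline tumor 4, the tumor with the highest level at 6.23 CPM, and a pseudogene on the same strand, Rpl18-ps1, overlaps it with counts equal to 39.3% of its own, so its values are uncertain. Selplg, a VISTA partner, gave -0.28 (edgeR, adjusted p = 0.303; -0.18 without saline tumor 2), Rgmb, a PD-L2 partner, gave -0.18 (edgeR, adjusted p = 0.384), and Treml2, proposed as a CD276 partner, gave -0.37 (edgeR, adjusted p = 0.538), a value that rests on saline tumor 2. Igsf11, proposed as a VISTA partner, had at most 10 counts in any tumor and was not tested.

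**Figure D3:**
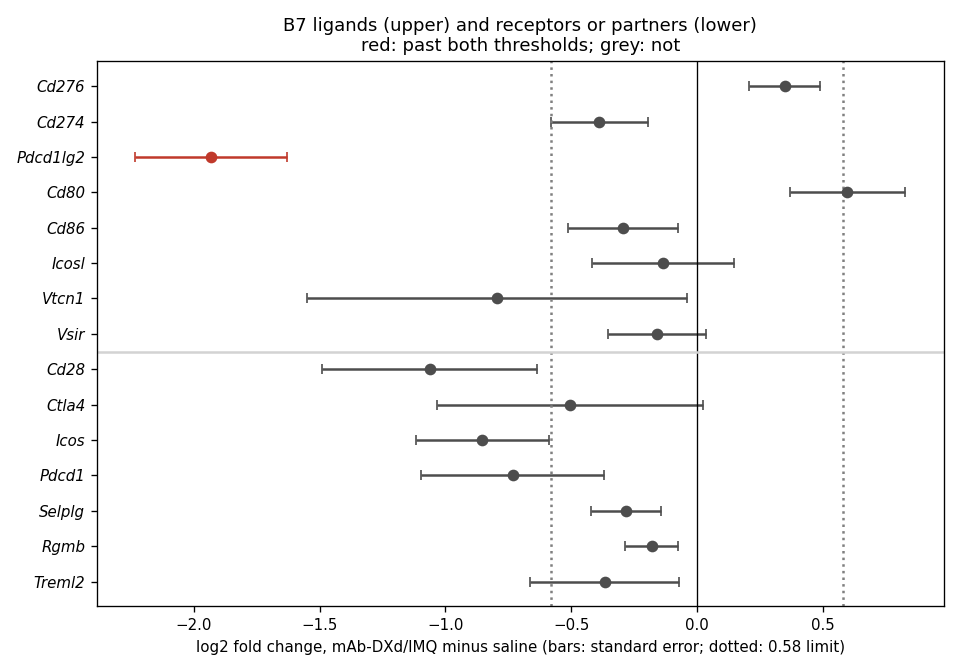
Log2 fold change of each B7 ligand and each tested receptor or partner, mAb-DXd/IMQ minus saline, with its standard error (horizontal axis). Only Pdcd1lg2 (red, -1.93) passed both thresholds, and all 7 receptors and partners lay below 0.

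Many of these receptors are made by T cells. The sum of 7 T-cell markers was 66.8, 95.3, 94.2 and 85.6 CPM in saline tumors 1 to 4 and 49.1, 43.4, 26.2 and 37.8 CPM in mAb-DXd/IMQ tumors 1 to 4, without overlap. All 7 had negative log2 fold changes with a median of -1.19, and 3 fell, against 0.519% of all tested genes. Cd8a was the most abundant per length and none was at 0 in any tumor. Cd4 fell by 1.91 (edgeR, adjusted p = 0.0201), Cd8a by 1.22 (edgeR, adjusted p = 0.0201) and Cd2 by 1.44 (edgeR, adjusted p = 0.0458) on the log2 scale. The calls of Cd4 and Cd8a were lost without saline tumor 3, saline tumor 4 or mAb-DXd/IMQ tumor 4, with an edgeR adjusted p of at most 0.0846 and log2 fold changes of -1.92 to -1.77 for Cd4 and -1.22 to -1.17 for Cd8a. The call of Cd2 was lost without any single tumor, with an edgeR adjusted p of at most 0.155 and log2 fold changes of -1.69 to -1.27. DESeq2 called 6 of the 7 markers and limma-voom 4, against 787 and 174 of all 18511 genes tested. The part of T-cell content in the receptor values was not tested.

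**Figure D4:**
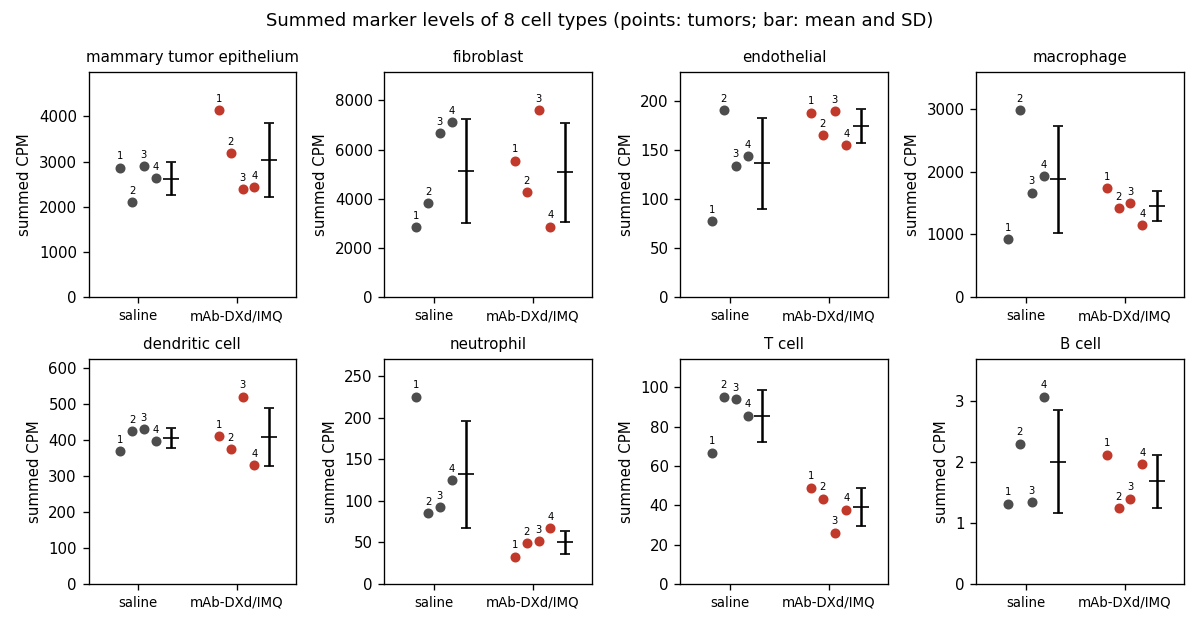
Summed CPM of the marker genes of 8 cell types (vertical axes, each starting at 0) in each saline (grey) and mAb-DXd/IMQ (red) tumor, numbered by replicate, with the mean and SD of each group (n = 4). T-cell sums were between 66.8 and 95.3 CPM with saline and between 26.2 and 49.1 CPM with treatment, and macrophage sums overlapped.

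Of 16 genes that carry signals from CD28-family receptors, 1 fell, 0 rose and 15 had negative log2 fold changes (14 with upper-quartile factors or library size alone), with a median of -0.30. By edgeR 0 were called without saline tumor 3, saline tumor 4 or mAb-DXd/IMQ tumor 4, and 6 had an unadjusted p under 0.05. DESeq2 called 4, against 787 of all 18511 genes tested. The most abundant gene per length was Akt1, a kinase found in most cells, at 429 ± 23.7 CPM (SD, n = 4) with saline and between 366 and 482 CPM with treatment.

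No gene was called by edgeR in the other 6 pathway lists. In the interferon-gamma to PD-L1 axis, 9 genes were tested and 2 had an unadjusted p under 0.05. Of these 9, 7 were negative (6 with limma-voom, 5 with upper-quartile factors), with a median log2 fold change of -0.09 (-0.05 with upper-quartile factors). Values ran from -1.015 for Ifng, named after its values were seen, to 0.057. The Ifng groups only just did not overlap, and its treated mean was 49.5% of the saline mean. Jak2 was the most abundant per length, at 550.3 ± 132 CPM (SD, n = 4) in saline tumors. Among 11 genes of PD-L1 protein turnover, 2 had an unadjusted p under 0.05 and 8 were negative, with a median of -0.13 (-0.09 with upper-quartile factors) and Otub1 the most abundant per length. Among 14 genes of the TLR7 to NF-kB and IRF axis, 9 had an unadjusted p under 0.05 and 13 were negative (12 with upper-quartile factors), with a median of -0.26 and Nfkb2 the most abundant per length. limma-voom called 0 genes in these 3 lists, and DESeq2 called 0 in the first 2 and 1, Irf7, in the last. Irf7, an interferon regulatory factor and the exception in direction, named after its values were seen, was at 173, 55.2, 143 and 119 CPM in saline tumors and at 279, 248, 286 and 272 CPM in mAb-DXd/IMQ tumors. All treated tumors were above all saline tumors, with saline tumor 2 lowest, and the log2 fold change was 1.15 (SE 0.269; edgeR, adjusted p = 0.0591, from 0.00126 to 0.175 over the alternatives). It was called with no filter on low counts (edgeR, adjusted p = 0.0199), without saline tumor 1 (1.36; edgeR, adjusted p = 0.0433) and without saline tumor 2 (0.91; edgeR, adjusted p = 0.0345).

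Among 7 tested genes of other checkpoint ligands, 3 had an unadjusted p under 0.05 and 5 were positive, with a median log2 fold change of 0.34 and Lgals9 the most abundant per length. Nectin2, a ligand of the TIGIT family and named after its values were seen, was at 42.0, 37.3, 43.3 and 35.3 CPM in saline tumors 1 to 4 and at 61.8, 52.8, 62.8 and 52.9 CPM in mAb-DXd/IMQ tumors 1 to 4. All treated values exceeded all saline values, and its log2 fold change of 0.55 (SE 0.112; edgeR, adjusted p = 0.0450, from 0.00186 to 0.155 over the alternatives) met the FDR limit and fell short of the size limit. Among 4 tested TNF-family ligands and CD40, 3 had an unadjusted p under 0.05 and 3 were positive, with a median of 0.60. The negative member was Tnfsf14, named after its values were seen. It averaged 4.73 ± 1.32 CPM (SD, n = 4) with saline and 2.65 ± 1.11 CPM (SD, n = 4) with treatment, without overlap. Tnfsf4, also named after its values were seen, had the highest log2 fold change, 1.225, without overlap, and was called by DESeq2. Cd40, a receptor on antigen-presenting cells and the most abundant per length, averaged 20.5 ± 2.56 CPM (SD, n = 4) with saline and 36.4 ± 12.3 CPM (SD, n = 4) with treatment, with groups that only just did not overlap (0.83, SE 0.216; edgeR, adjusted p = 0.0760; called with DESeq2 and with no filter on low counts). Among 5 tested butyrophilin relatives, 1 had an unadjusted p under 0.05 and 4 were positive, with a median of 0.32. The negative member was the most abundant per length, Ermap. It averaged 1.78 ± 0.803 CPM (SD, n = 4) with saline and 0.981 ± 0.598 CPM (SD, n = 4) with treatment, with overlap. Btnl9, named after its values were seen, had the highest log2 fold change, 1.31, without overlap and with only 7 to 104 counts per tumor. DESeq2 called 0, 2 and 0 genes in these 3 lists, against 787 of all 18511 genes tested, and limma-voom called 0 in each.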

How the data were processed

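Raw read counts for every gene and tumor were deposited by the authors, with gene lengths and without normalization. Submitters' processing notes name HISAT2, HISAT, TopHat2 and mm39 with no roles, whereas 98.3% of matched genes had GRCm38 coordinates, which are used here. Tumors were grouped by their labels, and no duplicated library was found. The labels give no link between same-numbered mice across groups, so no pairing was used.

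Genes were filtered with filterByExpr (minimum count 10, minimum total 15), normalized with TMM and compared with edgeR 4.0.16 (R 4.3.3) by its quasi-likelihood test, with Benjamini-Hochberg adjustment over all genes tested. Thresholds were an FDR of 0.05 and an absolute log2 fold change of 0.58. Standard errors are approximate, derived from the test statistic. The test was checked on simulated counts. CPM and RPKM used TMM-scaled library sizes. DESeq2 1.42.0 and limma 3.58.1 (voom) were among the alternatives. Python 3.11.15 and matplotlib 3.10.9 drew the figures.

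Members and lists were chosen with earlier results of these data known. Genes named by rule were all 8 ligands, their receptors and partners, and the called genes (except 1, not described). The rule also took the most abundant gene of each other list, and the 3 genes most like each ligand among those with a mean of at least 8 CPM. Further genes were named for the check of the tumor label, for overlap with a ligand or receptor, or for lacking counts in some tumors. The rest were named after their values were seen, as stated where they appear. Alternatives for genes outside the ligands and receptors were added after seeing the data. The lists also held markers of neutrophils, B cells, fibroblasts, endothelium, keratinocytes, skeletal muscle and adipocytes. Symbols, promoters and positions came from the count table and RefSeq.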

Additional observations from a re-analysis of the deposited data

Results flagged for a closer look

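Levels of the genes described by value, ligand shares and ratios, and list sums were checked in each group of 4 tumors for a value far from the others. Of 158 such groups, 6 stood out, where chance gives about 7.9. Other members of the marker and pathway lists, Ifng, Tnfsf4 and Btnl9 among them, were not checked. Pdcd1lg2 was low in mAb-DXd/IMQ tumor 3, at 2.12 CPM beside 3.02 to 3.12 CPM in the other treated tumors, a gap of 0.899 of the range. Ctla4 was high in saline tumor 4, at 6.23 CPM beside 2.11 to 2.49 CPM, a gap of 0.908 of the range. Csf3r, a neutrophil receptor, was low in mAb-DXd/IMQ tumor 1, at 15 CPM beside 21.8 to 22.8 CPM, a gap of 0.869 of the range. Epcam was low in saline tumor 2, at 193 CPM beside 413 to 446 CPM, also a gap of 0.869 of the range. Itgax was high in mAb-DXd/IMQ tumor 3, at 128 CPM beside 64.1 to 66.7 CPM (0.959 of the range), and Tnfsf14 was high in saline tumor 2, at 6.70 CPM beside 4.02 to 4.15 CPM (0.950 of the range).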

How the results depend on the processing

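The number of called genes moved far more than the ligands' fold changes. Against 197 called genes (96 lower, 101 higher), there were 358 (191, 167) with no filter on low counts and 787 (349, 438) with DESeq2. A gene length offset gave 122 (59, 63). Across genes, log2 fold change and gene length had a Spearman rho of -0.212, so longer genes tended to lower values, for a reason that was not tested. Upper-quartile factors gave 73 lower and 145 higher. With the replicate block, alone or with the length offset, 14 genes (4 lower, 10 higher) were called in each, and 0 ligands and 0 CD28-family signal genes. The block gave Pdcd1lg2 -1.85, Cd4 -1.87, Cd8a -1.24 and Cd2 -1.49, none called (edgeR, adjusted p = 0.0754, 0.0695, 0.0815 and 0.106; with the offset too, 0.0787, 0.0748, 0.0847 and 0.112), and Cd2 was also uncalled with library size alone (0.0523). Same-numbered tumors did not deviate together (r = -0.17, -0.055, 0.079 and -0.067), and differently numbered tumors gave r of -0.103 to 0.181. With 4 tumors per group these values cannot show that pairing was absent, and the labels give no pairing. Leaving out 1 tumor gave 10 (without saline tumor 3) to 203 genes (1 to 118 lower, 9 to 90 higher), 0 to 1 ligands, 0 to 1 CD28-family signal genes and 0 to 2 TLR7 axis genes. DESeq2 called 1 receptor, 2 TNF-family genes, 1 TLR7 axis gene and 4 CD28-family signal genes; no filter called 1 TNF-family and 1 TLR7 axis gene; upper-quartile factors and no fold limit each called 1 other checkpoint ligand. Icosl reversed to 0.100 and Vsir to 0.024 without saline tumor 2, and Ctla4 to 0.028 without saline tumor 4 (other fits without 1 tumor reached -0.348, -0.297 and -0.92). The cause was not tested. Cd276, Cd274, Cd80, Cd86 and Vtcn1 kept their direction and stayed uncalled in all 19 alternatives. Pdcd1lg2 kept its direction in 19 and its call in 12. Among these, the alternative with no fold limit repeats the main fit, so it could not change the direction of any ligand or the call of Pdcd1lg2. The order of ligand levels was the same with TPM. With 4 tumors per group and floors of up to 0.0867 CPM, Vtcn1, Ctla4 and Cd28, all low, had the largest standard errors among the ligands and receptors.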

Other observations

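The 6 neutrophil markers summed to 225, 84.9, 92.4 and 125 CPM in saline tumors 1 to 4 and to 33.0, 49.4, 51.4 and 67.1 CPM in mAb-DXd/IMQ tumors 1 to 4, without overlap. S100a9 was the most abundant per length, and Ly6g was at 0 in some tumors and was not tested. All 5 tested had negative log2 fold changes with a median of -1.74, and 1 fell, Csf3r (-0.80; edgeR, adjusted p = 0.0402), a call lost in 11 of 19 alternatives, among them each fit without 1 tumor except mAb-DXd/IMQ tumor 1 (log2 fold change -0.87 to -0.72, adjusted p at most 0.134). DESeq2 called 3 of the 5 and limma-voom 1, against 787 and 174 of all 18511 genes tested.

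None of the remaining marker lists had a called gene by edgeR or limma-voom, and DESeq2 called 2 B-cell markers, 1 lower and 1 higher, and 1 endothelial marker, higher. The gene named for each list is the most abundant per length. B-cell markers (5 genes, Cd79b) summed to 2.01 ± 0.843 CPM with saline and 1.68 ± 0.429 CPM with treatment (SD, n = 4 each), with Ms4a1 and Pax5 at 0 in some tumors. Endothelial markers (5 genes, Cdh5) summed to 136 ± 46.5 and 174 ± 17.3 CPM, and fibroblast markers (7 genes, Col1a1) to 5115 ± 2103 and 5071 ± 2014 CPM. Keratinocyte markers (6 genes, Krt14) summed to 124 ± 75.0 and 266 ± 178 CPM. Their sum was 519.7 CPM in mAb-DXd/IMQ tumor 2, beside 104 to 225 CPM in the other treated tumors and 34.4 to 212 CPM with saline. Skeletal muscle markers (5 genes, Acta1) summed to 230.1 ± 157 and 186 ± 100.5 CPM, and adipocyte markers (5 genes, Fabp4) to 23.8 ± 7.07 and 22 ± 5.30 CPM. The groups overlapped in each of these sums. Krt1, Krt5, Krtdap, Adipoq, Plin1, Cidec and Lep were at 0 in some tumors. With an unadjusted p under 0.05 in edgeR there were 2 B-cell, 1 endothelial and 1 fibroblast marker, and 0 in the other 3 lists.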
